A study of Homo sapiens with 6 samples.

Results

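The axon guidance ligands and receptors were taken as the genes named semaphorin (SEMA3 to SEMA7), plexin, neuropilin, ephrin, Eph receptor, netrin, Slit, Robo, UNC5, DCC, neogenin and srGAP in the RNA-Seq table of U87 cells. Names of these families stood on 73 of the 60671 genes of the table, and 50 of them reached 1 TPM in at least 1 library. These 50 genes are described here. U87 is an established human glioblastoma cell line, labelled as WHO grade IV, and all libraries came from this line. The treated group received rutaecarpine, an alkaloid of Evodia rutaecarpa, at 100 μM for 48 h in serum-free medium (n = 3), and the control group received the solvent, 0.1% DMSO, for 48 h (n = 3). The study asked which migration-related genes respond to rutaecarpine, which it examined as an agonist of the aryl hydrocarbon receptor (AhR). TPM, the unit of the table, corrects the reads assigned to each gene for transcript length and brings every library to a common total, so levels can be set side by side between genes, but the depth of sequencing behind a value is not known.

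Axon guidance molecules steer growing axons and migrating cells by attraction or repulsion. Semaphorins are secreted or membrane-bound ligands of plexins, and most of the secreted class 3 members also need a neuropilin as co-receptor. Ephrins are held on the cell surface and bind Eph receptor tyrosine kinases of neighbouring cells, netrins bind DCC, neogenin and UNC5 receptors, and Slits bind Robo receptors, whose cytoplasmic tails recruit srGAP proteins inside the cell. Many of these genes are also expressed outside the nervous system and in glioma cells.

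Among the 50 genes, 43 reached 1 TPM in at least 3 libraries and were tested for a difference between the groups within the fit of all 14377 such genes. NTN4 and UNC5B rose by more than 1 on the log2(TPM + 1) scale and EPHA2 fell by more than 1, each at an adjusted p no higher than 0.05 (limma, Benjamini-Hochberg adjustment over all genes tested, as for every adjusted p given here). SE stands for the standard error of a log2 fold change in that fit. Thus 3 of 43 members (6.98%) were called changed, against 505 of all 14377 genes tested (3.51%). By direction, 2 of 43 members were called higher, against 289 of all 14377 genes tested (2.01%). Called lower was 1 of 43 members, against 216 of all 14377 (1.5%). This balance depended on the scaling: after centring of the libraries on their medians 1 was called higher and 2 lower, with DCC in place of UNC5B, and after subtraction of a trend on transcript length and GC content 1 was called higher and 3 lower. At any fold change, 9 of 43 members (20.9%) had an adjusted p of at most 0.05, against 9.29% of all genes tested. These 9 comprised 4 that rose (NTN4, UNC5B, SEMA4C and SEMA7A) and 5 that fell (EPHA2, NTNG1, SEMA3B, PLXND1 and SEMA4B). Thus 4 of 43 members rose, against 662 of all 14377 genes tested (4.6%), and 5 of 43 fell, against 673 (4.68%). The 3 control values and the 3 treated values did not overlap for 19 of 43 members (44.2%), 10 of them higher and 9 lower after treatment, against 33.3% of all genes tested. Among the 9 lower members, NTN5 met the filter on expression only through its control libraries, which fixed its separation. How many such genes the background holds was not counted. At an unadjusted p under 0.05 there were 17 of 43 members (39.5%), against 24.4% of all genes. The families did not move as a whole in one direction, since 22 members had a positive and 21 a negative log2 fold change, with a median of 0.03 and a range from -1.65 to 1.33, beside a median of 0.08 over all genes tested. Among all genes tested, 8530 had a positive and 5847 a negative log2 fold change. In bulk RNA, fewer cells that express a gene and less RNA of it per cell cannot be told apart.

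**Figure D1:**
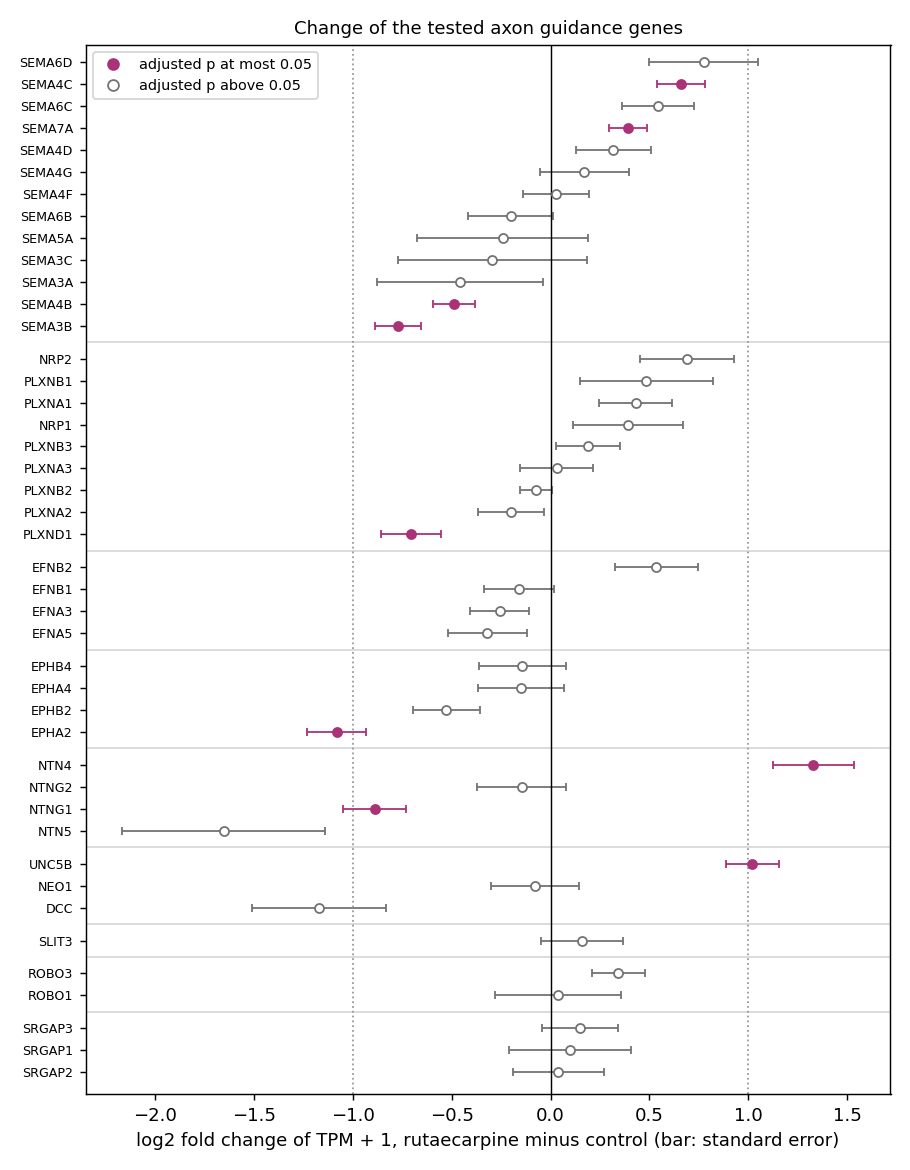
The log2 fold change on the log2(TPM + 1) scale (rutaecarpine minus control, x axis) is plotted for the 43 tested genes (y axis), grouped by family and role in the order semaphorins, plexins and neuropilins, ephrins, Eph receptors, netrins, netrin receptors, Slit, Robo receptors and srGAPs. Bars are standard errors from limma. Filled points have an adjusted p no higher than 0.05. Dotted lines mark the fold change of 1 that a call needs; NTN4 at 1.33 and UNC5B at 1.02 lie beyond the right line and EPHA2 at -1.08 beyond the left line with filled points.

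Control replicate 3 stood apart from the other libraries, and this bears on the families described here. Its median log2(TPM + 1) over the tested genes was 3.56, against 3.81 to 4.00 in the other 5 libraries. It lay below both other controls in 33 of 43 members (76.7%), against 62.3% of all genes tested, and was the lowest of all 6 libraries in 22 of 43 members (51.2%), against 46.8%. Long transcripts lay lower in this library: across genes, which are not independent replicates and share this library, the correlation between the log2 length of the longest transcript and the deviation of control replicate 3 from the mean of the other controls was -0.40 over 14267 genes and -0.41 over the 43 members. The median length was 6007 bases for the members and 3307 bases for all genes tested. A member's log2 fold change that moved by over 1.5 times, or passed the test only without this library, is therefore given with and without it. For members that overlapped between groups this was -0.10 for SEMA4F, -0.12 for PLXNA3, -0.21 for SRGAP1, -0.21 for SRGAP2, -0.22 for NEO1, -0.26 for EPHB4, -0.36 for EPHA4 and 0.053 for SLIT3 without control replicate 3, against 0.03, 0.03, 0.10, 0.04, -0.08, -0.14, -0.15 and 0.16 with all libraries, and none of these 8 members passed the test either way.

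**Figure D2:**
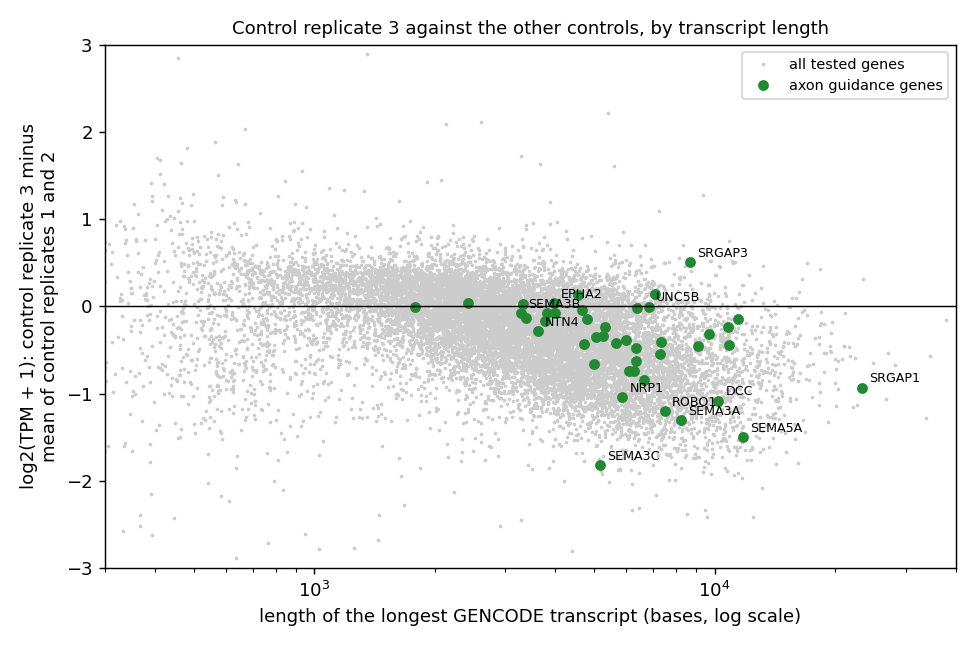
The difference in log2(TPM + 1) between control replicate 3 and the mean of control replicates 1 and 2 (y axis) is plotted against the length of the longest annotated transcript in bases (x axis, log scale) for the 43 members (green) and all tested genes with a length (grey). SEMA3C at -1.82, SEMA5A at -1.50, SEMA3A at -1.30, ROBO1 at -1.2, DCC at -1.08 and NRP1 at -1.04 lie far below 0, whereas UNC5B, EPHA2 and SEMA3B lie within 0.08 of it; the axes leave out 103 genes.

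The cell line was checked against marker genes. VIM, CD44, NES, S100A6, GFAP and OLIG2, 6 of 8 glioma or mesenchymal markers, reached a TPM of at least 1, whereas SOX2 and S100B stayed below it. The summed level of these 8 markers was 16940 to 18895 TPM in the control and 12229 to 13595 TPM in the treated group, where VIM fell (log2 fold change -0.63, adjusted p = 0.00894), NES fell (-0.53, adjusted p = 0.0491) and OLIG2 rose (0.83, adjusted p = 0.0262). Nearly all of this sum was VIM and S100A6, which are not specific to glioma. GFAP had at most 5.41 TPM and OLIG2 at most 4.11 TPM in any library. Of leukocyte markers 0 of 4 reached 1 TPM, and their summed level was at most 0.55 TPM in the control group and 0.28 TPM in the treated group. The endothelial and epithelial lists each had 1 of 4 markers at or above 1 TPM, with sums of at most 2.25 TPM in any library. Of 4 neuronal markers, TUBB3, MAP2 and SYN1 reached 1 TPM and RBFOX3 did not. The summed neuronal level was 176 to 195 TPM in the control group and 85.4 to 99.6 TPM in the treated group, nearly all of it TUBB3, a neuronal tubulin that tumour cell lines also express. TUBB3 fell (log2 fold change -0.97, adjusted p = 0.00186), and MAP2 did not pass the test (-0.88, adjusted p = 0.0811). The part of the glioma and neuronal markers in the results on axon guidance genes was not tested.

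The netrin family held both members called higher, NTN4 and UNC5B, and also the most negative log2 fold changes, those of NTN5 and DCC, which did not pass the test. Of 7 tested netrin family genes, 2 rose, 1 fell and 4 did not pass the test. The share that passed was 42.9%, against 9.29% of all genes tested. NTN4 (ENSG00000074527, GRCh38 chr12:95657807-95791152, minus strand) encodes netrin-4, a secreted netrin of basement membranes that binds laminins. Its level was 2.43, 2.62 and 1.89 TPM in the control libraries and 5.98, 6.92 and 9.29 TPM in the treated libraries. Every treated library was above every control library. The mean rose from 2.31 ± 0.38 to 7.40 ± 1.71 TPM (SD, n = 3 per group), a ratio of 3.20, with a log2 fold change of 1.33 (SE 0.20, adjusted p = 0.00906, limma with Benjamini-Hochberg adjustment). Without control replicate 3 the log2 fold change of NTN4 was 1.23 (adjusted p = 0.00582).

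NTNG1 (ENSG00000162631, chr1:107140007-107483458, plus strand) encodes netrin-G1, which is anchored to the membrane by a lipid and does not act through DCC but through the partner LRRC4C. It had 25.5, 25.4 and 18.7 TPM in the control libraries and 12.3, 10.8 and 12.8 TPM in the treated libraries. The groups were apart even though control replicate 3 lay lowest among the controls. The mean fell from 23.2 ± 3.92 to 12 ± 1.03 TPM, and the log2 fold change was -0.89 (SE 0.16, adjusted p = 0.0168), which stayed short of a call because of its size. Without control replicate 3 it was -1.03 with an adjusted p of 0.00118, which is a call, and without any other library the adjusted p was above 0.05 and at most 0.0756. LRRC4C itself had at most 0.03 TPM in any library.

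NTN5, a further netrin ligand, had the most negative log2 fold change of the tested members with a wide spread among the controls relative to their mean. Its control libraries had 9.04, 1.2 and 3.83 TPM and its treated libraries 0.30, 0.42 and 0.86 TPM. NTN5 entered the test only through its control libraries, since no treated library reached 1 TPM. The filter on expression thus fixed that all treated values lay below all control values, and this separation is not a result. The fold changes and tests of NTN5 share this limit. Control replicate 2 was close to the treated group. The log2 fold change was -1.65 (SE 0.51) with an adjusted p of 0.101. Without control replicate 2 it was -2.21 with an adjusted p of 0.0273, so the test of NTN5 depended on that library. NTNG2, the second netrin-G, had 1.69, 1.35 and 1.27 TPM in the control libraries and 1.05, 0.79 and 1.89 TPM in the treated libraries, which overlapped (log2 fold change -0.15, adjusted p = 0.720). NTN1, the classic ligand of DCC, was below the inclusion level of 1 TPM, at 0.01 TPM or less in the control and at most 0.11 TPM in the treated libraries, and NTN3 was at most 0.15 TPM.

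Among the netrin receptors, UNC5B (ENSG00000107731, chr10:71212570-71302864, plus strand), which mediates repulsion by netrins, had the highest level. It was at 21.0, 26.2 and 23.4 TPM in the control libraries and at 47.5, 43.3 and 55.6 TPM in the treated libraries. The groups were far apart, and control replicate 3 lay between the other controls. The mean rose from 23.5 ± 2.60 to 48.8 ± 6.27 TPM, a ratio of 2.07, with a log2 fold change of 1.02 (SE 0.13, adjusted p = 0.00532). The call of UNC5B is near the fold limit: its log2 fold change was 0.93 after centring of the libraries on their medians, and between 0.92 and 1.10 with a library left out, falling below 1 without control replicate 1 or without rutaecarpine replicate 3, whereas its adjusted p stayed at or below 0.0332 in all 6 of these fits. The other UNC5 receptors, UNC5A, UNC5C and UNC5D, had at most 0.28 TPM in any library.

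DCC, the receptor for attraction by netrins, had 7.15, 8.85 and 3.24 TPM in the control libraries and 2.60, 1.44 and 2.40 TPM in the treated libraries. The treated values were all lower than the control values, with control replicate 3 the nearest to them. The log2 fold change of -1.17 (SE 0.34) had an adjusted p of 0.0848, and without control replicate 3 it was -1.53 with an adjusted p of 0.0037. After centring of the libraries on their medians it was -1.26 with an adjusted p of 0.0162. NEO1, which encodes the related receptor neogenin, had 12.6, 11.7 and 8.90 TPM in the control libraries and 10.2, 7.88 and 13.5 TPM in the treated libraries, and these overlapped (log2 fold change -0.08, adjusted p = 0.851). Per library, the TPM of UNC5B divided by that of DCC was 2.94, 2.96 and 7.22 in the control group and 18.3, 30.0 and 23.2 in the treated group. This ratio was chosen after the values were seen and was not tested.

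**Figure D3:**
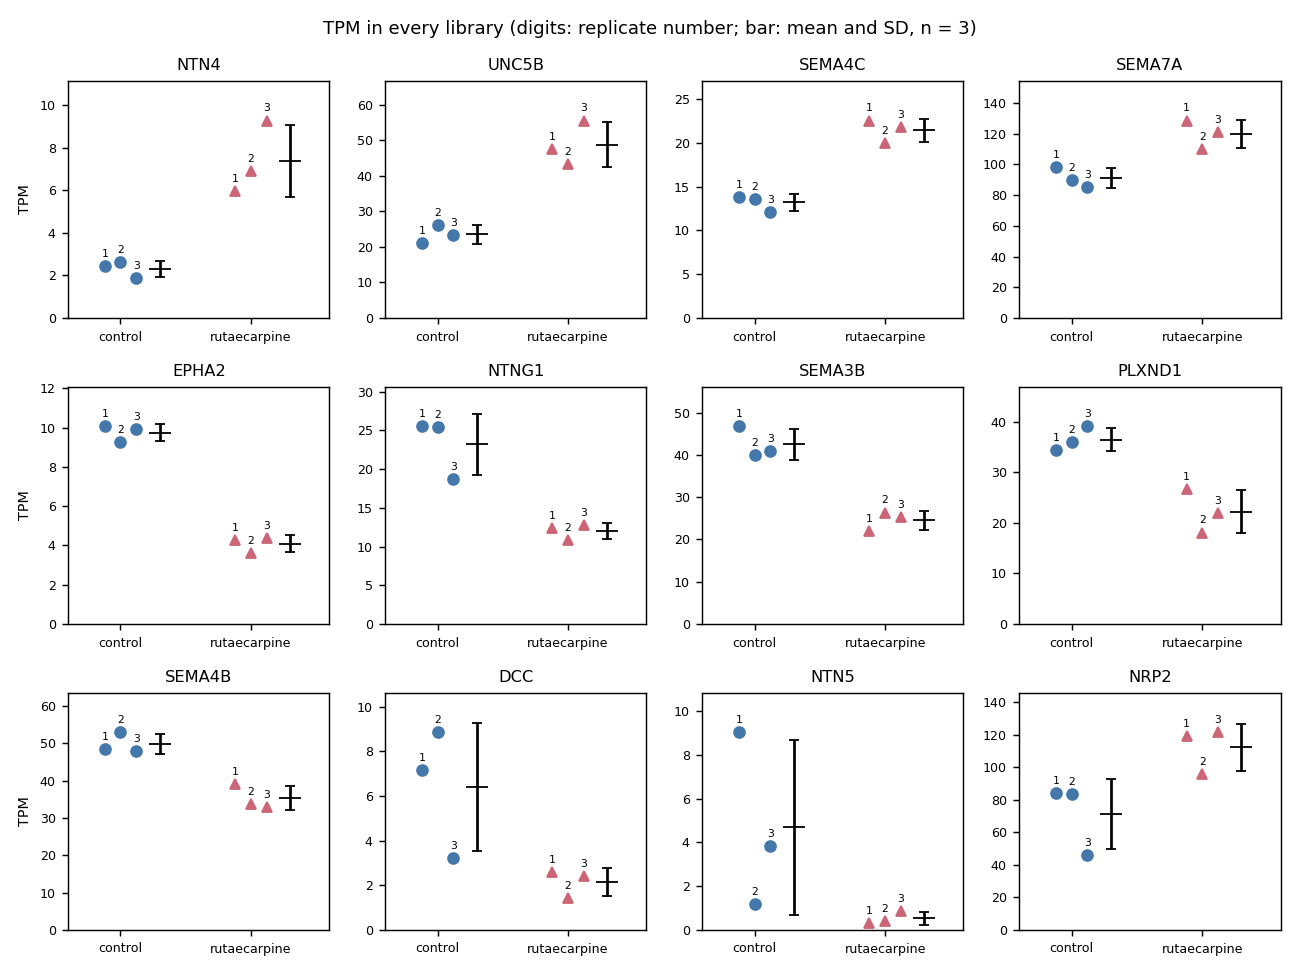
TPM (y axis, from 0) is plotted for each library of the control and rutaecarpine groups (x axis), with the replicate number above each point and the mean and SD (n = 3) beside it, for the 9 members that passed the test and for DCC, NTN5 and NRP2. The groups do not overlap in any of the 12 panels, which the filter on expression fixed for NTN5. The panels were chosen with these values known, so this lack of overlap is not a result. Over all 43 tested members the share without overlap was 44.2%, against 33.3% of all genes tested. The controls of NTN5 spread from 1.2 to 9.04 TPM, and control replicate 3 lies well below the other controls for DCC and NRP2.

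Of the Eph receptors, EPHA2 fell and the other tested members did not pass the test. This was 25.0% of the 4 tested, against 9.29% of all genes tested. EPHA2 (ENSG00000142627, chr1:16124337-16156087, minus strand) is a receptor tyrosine kinase for ephrin-A ligands that is often abundant in glioblastoma. It had 10.1, 9.25 and 9.93 TPM in the control libraries and 4.27, 3.59 and 4.40 TPM in the treated libraries. The spread within each group was small against the distance between them. The mean fell from 9.75 ± 0.435 to 4.09 ± 0.435 TPM, a ratio of 0.419, with a log2 fold change of -1.08 (SE 0.15, adjusted p = 0.00604). It stayed at or below -1.01 in all 6 fits with a library left out, with an adjusted p of at most 0.0368.

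EPHB2, a receptor for ephrin-B ligands and the most abundant Eph receptor here, had 15.3, 14.6 and 12.5 TPM in the control and 11.3, 7.78 and 9.68 TPM in the treated libraries. Its groups did not overlap, but the log2 fold change of -0.53 (SE 0.17) had an adjusted p of 0.114. Without control replicate 3 it was -0.61 with an adjusted p of 0.0396. EPHA4, which binds ephrins of both classes, had 6.0, 5.81 and 3.48 TPM in the control and 4.77, 4.06 and 4.37 TPM in the treated libraries, and these overlapped. EPHB4, the receptor for ephrin-B2, likewise overlapped, at 2.63 to 3.63 TPM in the control and 2.11 to 3.83 TPM in the treated group, with an adjusted p of 0.720. EPHB4 shares exon sequence on the opposite strand with SLC12A9, and whether reads were counted by strand is not given in the sources used here. All 4 tested Eph receptors had a negative log2 fold change, with a median of -0.34, as had 5847 of all 14377 genes tested. EPHA1, EPHA5 and EPHA7 were members but too low to be tested, with at most 1.08, 1.22 and 1.18 TPM. EPHA1 had 1.05, 1.08 and 0.88 TPM in the control libraries and 0.62, 0.43 and 0.33 TPM in the treated libraries, without a test, and its exons overlap those of ZYX on the opposite strand. EPHA1 reached the inclusion level only in control libraries, so its lower treated values are tied to that rule and are not a result.

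None of the 4 tested ephrin ligands passed the test in either direction. EFNB2, the membrane-spanning ephrin-B2 and the most abundant ephrin, had 22.5, 22.7 and 13.9 TPM in the control libraries and 32.2, 24.5 and 28.9 TPM in the treated libraries. The treated values were all higher, but control replicate 3 was low, and the log2 fold change was 0.54 (SE 0.21, adjusted p = 0.176) with all libraries and 0.31 (adjusted p = 0.131) without it. EFNA3 had 9.01, 10.5 and 9.70 TPM in the control and 7.64, 9.07 and 7.27 TPM in the treated libraries, with an adjusted p of 0.349. EFNA5 had 7.70, 7.61 and 6.35 TPM in the control and 7.08, 4.29 and 5.63 TPM in the treated libraries, with an adjusted p of 0.379. Both are lipid-anchored ligands of EphA receptors, and the groups overlapped for each. EFNB1 was at 1.88 to 2.80 TPM in the control and 1.89 to 2.14 TPM in the treated group, and EFNB3 was at most 1.23 TPM and was not tested. EFNA1, a ligand of high affinity for EphA2, was below the inclusion level, at up to 0.31 TPM in the control and up to 0.38 TPM in the treated libraries.

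The semaphorins formed the largest family, with 16 ligands and 9 plexins and neuropilins among the members. Of the 13 ligands that could be tested, SEMA4C and SEMA7A rose, SEMA3B and SEMA4B fell and 9 did not pass the test. The share that passed was 30.8%, against 9.29% of all genes tested. SEMA3B (ENSG00000012171, chr3:50267558-50277546, plus strand), a secreted semaphorin known as a candidate tumour suppressor, had 46.8, 40.0 and 41.0 TPM in the control libraries and 22.0, 26.4 and 25.3 TPM in the treated libraries. The groups were well apart. The mean fell from 42.6 ± 3.67 to 24.6 ± 2.26 TPM, and the log2 fold change was -0.77 (SE 0.12, adjusted p = 0.00868), and the adjusted p was at most 0.0466 with any library left out.

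SEMA4B (chr15:90160604-90229679, plus strand), a membrane-spanning semaphorin, had 48.4, 52.9 and 48.0 TPM in the control libraries and 39.1, 33.8 and 33.0 TPM in the treated libraries. All treated values lay below all control values. The log2 fold change was -0.49 (SE 0.11, adjusted p = 0.0326), and of the 6 fits with a library left out only that without control replicate 3 had an adjusted p of at most 0.05, the highest being 0.148. SEMA4C (chr2:96859716-96870757, minus strand), a membrane-spanning ligand of plexin-B2, moved the other way. It had 13.9, 13.6 and 12.1 TPM in the control libraries and 22.5, 19.9 and 21.8 TPM in the treated libraries, and the groups were apart by several times their SD. The log2 fold change was 0.66 (SE 0.12, adjusted p = 0.0181), and leaving out any library other than control replicate 3 gave an adjusted p above 0.05, up to 0.1002. PLXNB2, its receptor, was the steadiest of the abundant members, with 114, 114 and 112 TPM in the control and 116, 101 and 106 TPM in the treated libraries (log2 fold change -0.07, SE 0.08, adjusted p = 0.617).

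SEMA7A (chr15:74409289-74433958, minus strand), a lipid-anchored semaphorin that binds plexin-C1 and integrins, was the ligand with the highest mean level. It had 98.5, 89.6 and 85.4 TPM in the control libraries and 129, 110.3 and 121 TPM in the treated libraries. The groups did not overlap, but the rise was small, with a log2 fold change of 0.39 (SE 0.10) and an adjusted p of 0.0497, just inside the limit. It was 0.30 after centring of the libraries on their medians, with an adjusted p above 0.05, and leaving out any library other than control replicate 3 gave an adjusted p up to 0.189. The receptor gene PLXNC1 had at most 0.36 TPM in any library, whereas ITGB1, an integrin subunit, had 309.6 to 651 TPM in the control and 547 to 592 TPM in the treated group.

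SEMA3C, a secreted semaphorin known to promote glioma cell survival and invasion, showed the effect of control replicate 3 most plainly. It had 102, 87 and 26.0 TPM in the control libraries and 58.0, 41.9 and 51.3 TPM in the treated libraries. The treated values lay between control replicate 3 and the other controls. The log2 fold change was -0.29 (SE 0.48, adjusted p = 0.736) with all libraries and -0.90 (adjusted p = 0.00536) without control replicate 3. SEMA5A, a membrane-spanning semaphorin with thrombospondin repeats, had the same arrangement, with 37.0, 34.9 and 12.1 TPM in the control and 25.1, 14.8 and 25.2 TPM in the treated libraries. SEMA3A, the collapse-inducing prototype of the family, had 2.16, 5.22 and 0.80 TPM in the control and 1.30, 1.35 and 1.53 TPM in the treated libraries. Neither gene passed the test. SEMA5A had a log2 fold change of -0.24 (adjusted p = 0.760), and -0.74 (adjusted p = 0.0572) without control replicate 3. That of SEMA3A was -0.46 (adjusted p = 0.543), and -0.89 (adjusted p = 0.0762) without it.

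SEMA6D, SEMA6C and SEMA4D, weakly expressed membrane-spanning semaphorins, were higher in every treated library than in any control library but did not pass the test. SEMA6D had 1.82, 1.33 and 0.54 TPM in the control and 3.28, 1.96 and 3.00 TPM in the treated libraries (log2 fold change 0.77, SE 0.28, adjusted p = 0.141). SEMA6C had 1.24, 1.48 and 0.87 TPM in the control and 2.21, 2.39 and 1.94 TPM in the treated libraries (log2 fold change 0.54, SE 0.18, adjusted p = 0.124). SEMA4D, the ligand of plexin-B1, had 1.62 to 2.59 TPM in the control and 2.65 to 3.14 TPM in the treated group, with a log2 fold change of 0.32 (adjusted p = 0.360), or 0.18 without control replicate 3. At these levels the log2(TPM + 1) scale understates the change. SEMA4F, SEMA4G and SEMA6B overlapped between groups and had log2 fold changes of 0.03, 0.17 and -0.20. SEMA3D, SEMA5B and SEMA6A reached at most 1.47, 1.2 and 1.25 TPM and were not tested.

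Of the 9 plexins and neuropilins, PLXND1 fell and 8 did not pass the test. The share that passed was 11.1%, near the 9.29% of all genes tested. PLXND1 (ENSG00000004399, chr3:129555175-129606818, minus strand) encodes plexin-D1, the receptor of the secreted semaphorin SEMA3E in blood vessels. It had 34.5, 36.0 and 39.1 TPM in the control libraries and 26.7, 18.1 and 21.9 TPM in the treated libraries. Its control replicate 3 was the highest control, unlike most members. The mean fell from 36.5 ± 2.36 to 22.2 ± 4.29 TPM, and the log2 fold change was -0.71 (SE 0.15, adjusted p = 0.0332), which was at most 0.05 only without control replicate 3 or without rutaecarpine replicate 1 among the 6 fits with a library left out, and otherwise up to 0.1295. SEMA3E was below the inclusion level, with 0.91, 0.16 and 0.47 TPM in the control and 0.09, 0.03 and 0.00 TPM in the treated libraries.

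NRP1 and NRP2, the neuropilins that class 3 semaphorins and vascular endothelial growth factors share, were among the most abundant members. NRP1 had 169, 185 and 85.5 TPM in the control and 192, 162 and 196 TPM in the treated libraries, and these overlapped (log2 fold change 0.39, adjusted p = 0.433). Without control replicate 3 the log2 fold change of NRP1 was 0.047 (adjusted p = 0.784). NRP2 had 83.9, 83.7 and 46.3 TPM in the control and 119, 95.9 and 121 TPM in the treated libraries. The NRP2 groups did not overlap, and the log2 fold change was 0.69 (SE 0.24, adjusted p = 0.132). Without control replicate 3 it was smaller, at 0.41, but its adjusted p was 0.0409, and after centring of the libraries on their medians it was 0.60 with an adjusted p of 0.0495.

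Plexin-A genes, whose products signal for class 3 and class 6 semaphorins, did not pass the test. PLXNA3 had 74.2, 58.3 and 48.2 TPM in the control and 63.8, 50.4 and 69.3 TPM in the treated libraries, and its exons overlap those of LAGE3 on the opposite strand. PLXNA1 had 27.3, 27.5 and 19.7 TPM in the control and 36.4, 27.2 and 38.0 TPM in the treated libraries (log2 fold change 0.43, adjusted p = 0.208), and without control replicate 3 the log2 fold change was 0.28. PLXNA2 was lower in every treated library, at 1.32 to 1.6 TPM against 1.67 to 2.16 TPM (log2 fold change -0.20, adjusted p = 0.503). PLXNB3 and PLXNB1 overlapped between groups, with log2 fold changes of 0.19 and 0.48, and of 0.030 and 0.30 without control replicate 3.

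No member of the Slit and Robo system passed the test. ROBO1, a receptor of Slit ligands, had 71.8, 60.3 and 28.0 TPM in the control and 49.4, 49.1 and 54.1 TPM in the treated libraries. Control replicate 3 was below, and the other controls were above, all treated libraries, and the log2 fold change was 0.04 (SE 0.32, adjusted p = 0.957) with all libraries and -0.37 (adjusted p = 0.0419) without control replicate 3. ROBO3, a divergent Robo receptor, had 9.66, 10.3 and 11 TPM in the control and 14.5, 13.2 and 12.3 TPM in the treated libraries. The ROBO3 groups did not overlap, with a log2 fold change of 0.34 (SE 0.13) and an adjusted p of 0.173. SLIT3 was the single Slit ligand among the members, with 7.57, 7.95 and 6.03 TPM in the control and 10.7, 7.13 and 6.91 TPM in the treated libraries (log2 fold change 0.16, adjusted p = 0.670). SLIT1 and SLIT2 were at most 0.03 and 0.41 TPM, and ROBO2 and ROBO4 at most 0.12 and 0.90 TPM.

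The srGAPs, intracellular partners of Robo, overlapped between the groups. SRGAP3 had 5.62, 6.20 and 8.82 TPM in the control and 8.31, 7.11 and 7.48 TPM in the treated libraries, with a log2 fold change of 0.15 (SE 0.19, adjusted p = 0.665). It differed from most members in that control replicate 3 was its highest library, and without that library the log2 fold change was 0.32 (adjusted p = 0.165). Its exons overlap those of THUMPD3 on the opposite strand. SRGAP2 had 30.0, 29.1 and 17.3 TPM in the control and 27.5, 21.2 and 28.2 TPM in the treated libraries. These values are uncertain, because the human genome holds near-identical partial copies of SRGAP2 between which RSEM divides reads. SRGAP1 had 5.32, 4.60 and 2.12 TPM in the control and 4.09, 3.20 and 5.33 TPM in the treated libraries.

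**Figure D4:**
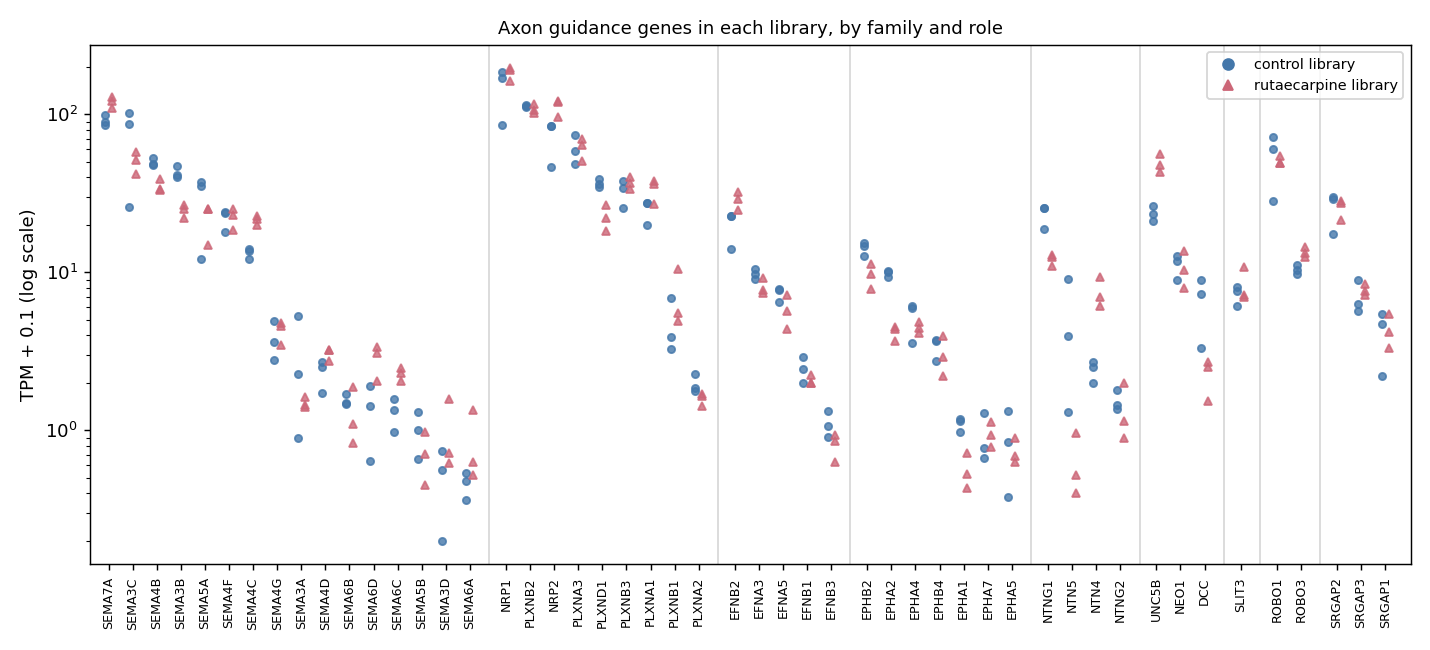
TPM + 0.1 (y axis, log scale) is plotted for each of the 50 members (x axis), ordered within family and role by level, with a point for each of the 3 control (circles) and 3 rutaecarpine (triangles) libraries. NRP1, PLXNB2 and SEMA7A have the highest control means, followed by SEMA3C (71.6 TPM) and NRP2 (71.3 TPM). The lowest circle is control replicate 3 for SEMA3C, SEMA5A, NRP1, NRP2, ROBO1 and DCC.

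By mean TPM in the control group, the most abundant receptors were NRP1 (146 ± 53.4 TPM), PLXNB2 (113 ± 0.98 TPM) and NRP2 (71.3 ± 21.7 TPM), and the most abundant ligands were SEMA7A (91.1 ± 6.70 TPM), SEMA3C (71.6 ± 40.2 TPM) and SEMA4B (49.8 ± 2.72 TPM). Of the neighbours in these orders, PLXNB2 and NRP2 differed by more than the sum of their SDs, and the others did not. Summed over members, the TPM of the netrin receptors was 35.5 to 46.7 in the control and 52.6 to 71.5 in the treated libraries, and that of the Eph receptors was 30.3 to 37.9 and 20.9 to 25.2. Netrin ligands summed to 25.7 to 38.7 TPM and to 18.9 to 24.8 TPM, with NTNG1 the largest part. These netrin ligand sums include NTN5, whose separation the filter on expression fixed, and sums without it were not taken. The gap between the netrin ligand sums is therefore not a result. Semaphorin ligands summed to 252 to 386 TPM in the control and 282 to 337 TPM in the treated group, and their receptors to 381 to 547 and 499 to 599.9 TPM, so these sums overlapped. The sums are descriptions without a test.

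AhR is a transcription factor that binds DNA at the dioxin response element, and promoter sequences of the members were therefore searched for it. RefSeq promoter windows on GRCh38.p14, from 250 bases before to 50 bases after a transcript start, were found for 43 of the 50 members by symbol. EFNB3, NRP1, NTNG2, SEMA3A, SEMA6A, SEMA6B and UNC5B had no window. The letters TNGCGTG on either strand were in the windows of 5 of 43 members (11.6%), against 6.69% of all 27305 genes with windows, and 7.35% of the members' 68 windows against 5.51% of all windows. The shorter GCGTG, which TNGCGTG contains, was in those of 23 of 43 members (53.5%), against 40.6% of all genes. Counted by window, the shares of GCGTG were 44.1% for the members and 36.5% for all genes. The 5 genes with the longer match follow, with 10 bases on each side, on the strand of the gene, with the match in capitals. RefSeq lists several starts for some genes, and those of NTN5, SEMA3B and SEMA4G used here lie inside the gene as GENCODE annotates it. SEMA3B was the single one among them that passed the test of expression.
SEMA3B, chr3:50268983-50269009, plus strand, 168 bases before the start: gtgtgcccagTGGCGTGggtgtgtctg
NTN5, chr19:48673130-48673156, minus strand, 129 bases before the start: cctgtggggaTAGCGTGgctgcggttg
NTN5, chr19:48673007-48673033, minus strand, 6 bases before the start, match on the other strand: tgagaacagcCACGCCActccctcctg
EPHB4, chr7:100827620-100827646, minus strand, 113 bases before the start: aattattcagTAGCGTGagctccaatc
SEMA4G, chr10:100972395-100972421, plus strand, 124 bases before the start: gagtcgatccTGGCGTGggcgttctgt
SEMA3D, chr7:85187130-85187156, minus strand, 90 bases before the start: ttgggagttcTGGCGTGcgcagtggaa

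The windows of EPHA2 and NTN4, the called members for which a window was found, held no TNGCGTG. EPHA2 had the shorter letters once, on the other strand (CACGC, in capitals), 45 bases before the start, and NTN4 had none. The 250 bases before the start of each, on the strand of the gene, are given to show these promoters, for NTN4 from the more upstream of its windows.
EPHA2, chr1:16156070-16156319, minus strand: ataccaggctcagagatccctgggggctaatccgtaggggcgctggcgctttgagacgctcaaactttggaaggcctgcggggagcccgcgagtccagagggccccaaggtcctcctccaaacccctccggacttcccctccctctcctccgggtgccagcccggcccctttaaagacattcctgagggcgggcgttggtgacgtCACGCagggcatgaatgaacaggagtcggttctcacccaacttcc
NTN4, chr12:95791156-95791405, minus strand: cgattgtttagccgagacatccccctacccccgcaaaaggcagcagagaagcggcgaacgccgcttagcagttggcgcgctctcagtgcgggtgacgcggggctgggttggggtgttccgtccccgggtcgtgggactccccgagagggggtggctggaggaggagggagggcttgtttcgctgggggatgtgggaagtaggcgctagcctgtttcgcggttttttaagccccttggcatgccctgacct
A match in these letters is a description, not a binding site, and the absence of a match says only that the letters are not in this window.

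Other genes of the pathway, a list of 104 co-receptors, GTPase regulators, adaptors, kinases and cytoskeletal effectors, were examined beside the ligands and receptors. Of the 88 that could be tested, 1 was called changed (1.14%, against 3.51% of all genes tested), 5 passed at an adjusted p of 0.05 (5.68%, against 9.29%) and 27 had groups that did not overlap (30.7%, against 33.3%). Each share was below that of all genes, and the median log2 fold change was 0.15. Of the 5, 3 rose. RND3, an atypical small GTPase, had 178, 174 and 128 TPM in the control and 300.1, 315 and 346 TPM in the treated libraries, with a log2 fold change of 1.01 (SE 0.14, adjusted p = 0.00586). Without control replicate 3 it was 0.86 (adjusted p = 0.000472), below the fold limit. LIMK1, the kinase of cofilin, rose from 119 ± 0.60 to 170.4 ± 10.5 TPM (SD, n = 3 per group), at a log2 fold change of 0.51, and the actin-binding ABLIM3 rose from 45.3 ± 9.80 to 82.3 ± 7.18 TPM with one of 0.87. BCAR1, an adaptor of focal adhesions, fell from 71.7 ± 3.46 to 51.9 ± 5.48 TPM and EVL, an actin-elongating protein, from 24.4 ± 1.6 to 14.8 ± 2.80 TPM, with log2 fold changes of -0.46 and -0.70. The adjusted p of these 4 genes was 0.00868 for LIMK1, 0.0230 for ABLIM3, 0.0372 for BCAR1 and 0.0366 for EVL, from the same limma fit. Of the 6 fits with a library left out, it stayed at or below 0.05 in 4 for LIMK1, in 2 for ABLIM3, in 2 for EVL and in 1 for BCAR1, against all 6 for RND3.

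Members near the inclusion level of 1 TPM in any library were EPHA1 at 1.08 TPM and EPHA7 at 1.18 TPM just inside it, and EPHB1 at 0.96, EPHA3 at 0.94, SEMA3E at 0.91 and ROBO4 at 0.90 TPM just outside it. In all, 23 of the 73 named family genes stayed below the level, and EPHA6 and EFNA2 were listed at 0 in every library.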

How the data were processed

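RNA-Seq libraries of U87 cells, 3 per group, were analysed. The labels do not say whether replicates came from separate cultures, so p-values measure the spread between these samples. The RNA had been fragmented and sequenced on an Illumina NovaSeq instrument, the authors estimated gene abundances with RSEM, and the deposited values are TPM. The submitters' processing notes also name GRCh38.p13, DESeq2 and edgeR. The aligner and filters are not given in the sources used here. All 6 columns matched a sample and 0 were left unmatched.

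TPM summed to between 990889 and 995734 per library and keep no read numbers, so depth and counting error are unknown and count tests were not used. The 14377 genes that reached 1 TPM in at least 3 libraries were compared on log2(TPM + 1), with a pseudocount of 1, in limma 3.58.1 (R 4.3.3, empirical Bayes with a mean-variance trend, two-sided) with Benjamini-Hochberg adjustment over all of them. A call needed an absolute log2 fold change above 1 together with an adjusted p no higher than 0.05. With 3 against 3 libraries an exact permutation test cannot go below 0.1, so none was used. Fold changes understate those of weak genes. The script was tested on simulated data with independent noise and without the shift of control replicate 3. That simulation does not bear on the effect of this library. Positions and lengths came from GENCODE 29. Tables and figures were made with Python 3.11.15, numpy 2.4.6, pandas 2.3.3 and matplotlib 3.10.9.

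The members and lists were chosen with earlier results of these data known. Library values are given for members with an adjusted p of at most 0.05, for those whose groups did not overlap with an absolute log2 fold change of at least 0.5, for the most abundant of each role, and for NTN4, SRGAP3, EPHA2, NTNG1 and DCC. The study lists these 5 genes as migration-related from these same libraries, so they are not independent evidence. Other pathway genes are named where their adjusted p was at most 0.05. The alternatives were centring libraries on their medians, no trend, no filter, 1 TPM reached in every library, a pseudocount of 0.1, the replicate number as a block, library weights (limma's arrayWeights), subtraction of a spline trend (5 degrees of freedom) on transcript length and GC content, leaving out each library in turn, and an adjusted p of at most 0.001.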

Additional observations from a re-analysis of the deposited data

How the results depend on the processing

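The alternatives moved the number of members that passed more than their directions. No member with an adjusted p of at most 0.05 changed direction under any of the 14 alternatives, and UNC5B kept an adjusted p of at most 0.0443 in all of them. NTN4, EPHA2 and SEMA3B kept one of at most 0.05 in 13, PLXND1, NTNG1 and SEMA4C in 8, SEMA4B in 6 and SEMA7A in 4. The 3 members called changed became 1 with the replicate number as a block, 0 at an adjusted p of at most 0.001, and 2 to 5 with a library left out, the highest without control replicate 3, where DCC and NTNG1 joined. The 9 members with an adjusted p of at most 0.05 became 1 with the replicate block, 18 with library weights (weight of control replicate 3: 0.121), 15 with the length and GC trend subtracted, and 4 to 14 with a library left out, 14 without control replicate 3. The correlations between same-numbered libraries of deviations from the group means were 0.12, -0.27 and -0.22. With 3 libraries per group and control replicate 3 apart, these correlations cannot show whether the libraries were processed in pairs. The fit with the replicate block is therefore not set aside.

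Of the other pathway genes, 1 was called changed, and 0 with centred libraries, with library weights, with the length and GC trend subtracted or at an adjusted p of at most 0.001, and 0 to 1 with a library left out. The 5 with an adjusted p of at most 0.05 became 2 with no filter on low TPM, 1 with the replicate block, 19 with library weights, 15 with the length and GC trend subtracted and 1 to 11 with a library left out.

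Some members that did not pass the test turned sign, among them SEMA3A, SEMA3C and SEMA5A, whose log2 fold changes with all libraries were -0.46, -0.29 and -0.24. After the turn the adjusted p was above 0.05 except for ROBO1 without control replicate 3. Centred on library medians, PLXNA3 was at -0.061, ROBO1 at -0.058, SEMA4F at -0.066 and SRGAP2 at -0.053. With library weights, PLXNA3 was at -0.0059, ROBO1 at -0.31, SEMA4F at -0.033, SRGAP1 at -0.11 and SRGAP2 at -0.11. With the length and GC trend subtracted, PLXNA3 was at -0.046, ROBO1 at -0.089, SEMA4F at -0.067, SRGAP1 at -0.091 and SRGAP2 at -0.074. With a library left out, log2 fold changes ranged from -0.31 to 0.012 for EPHB4, -0.26 to 0.094 for NEO1, -0.34 to 0.0024 for NTNG2, -0.12 to 0.19 for PLXNA3, -0.37 to 0.30 for ROBO1, -0.89 to 0.0038 for SEMA3A, -0.90 to 0.066 for SEMA3C, -0.10 to 0.15 for SEMA4F, -0.74 to 0.028 for SEMA5A, -0.021 to 0.26 for SLIT3, -0.21 to 0.30 for SRGAP1 and -0.21 to 0.17 for SRGAP2. Requiring 1 TPM in every library left 37 members in the fit. The cause of these changes was not tested. TPM keep no depth, so what depth limits cannot be given.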

Other observations

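Family genes whose rows carry no gene name in the table stand outside the rule, and 2 of them were tested under names looked up by identifier. PLXNA4 (ENSG00000221866), a receptor for class 3 and class 6 semaphorins, had 1.19, 1.09 and 0.77 TPM in the control libraries and 2.17, 1.53 and 2.50 TPM in the treated libraries. Its groups did not overlap, and the log2 fold change was 0.60 (SE 0.20, adjusted p = 0.119, limma with Benjamini-Hochberg adjustment). EFNA4 (ENSG00000243364), an ephrin-A ligand, had 7.31, 6.0 and 6.96 TPM in the control libraries and 7.87, 7.02 and 6.57 TPM in the treated libraries, and these overlapped (log2 fold change 0.07, adjusted p = 0.801). SEMA4G shares exon sequence on the opposite strand with MRPL43, a gene with a mean of 106 TPM in the control group, beside which the 2.67 to 4.81 TPM of SEMA4G in that group are small.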
